A study of Mus musculus with 2 samples.

Results

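Cell cycle genes were examined in mammary glands of adult mice in which Gata3, the zinc finger transcription factor of luminal cells, could be deleted with doxycycline. The set holds 45 listed genes, chosen by symbol and sorted by role into G1 cyclins and their kinases, inhibitors of these kinases, the Rb and E2F regulators, replication genes and mitotic genes. Of these, 42 were named on the array, among 15056 named genes in all. E2f3, Ccnb1, which encodes cyclin B1, and Mki67, the gene of the proliferation marker Ki-67, were not matched to a feature, so they have no value here. The measured genes had 76 features, which are the oligonucleotide spots of the array. There were 21 genes with 1 feature and 21 with 2 or more, whose features were averaged.

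The glands compared were GATA-3flox/+; WAP-rtTA-Cre (het, with 1 floxed allele) and GATA-3flox/flox; WAP-rtTA-Cre (null, with both alleles floxed). Both genotypes carried the transgenes and both received doxycycline for 5 days, so the het glands are no wild type: they can lose 1 Gata3 allele in the same cells. The WAP promoter, from the gene of whey acidic protein, limits Cre to mammary epithelial cells, while the RNA came from the whole gland with its fat, stroma, vessels and immune cells. Het RNA carried Cy5 and null RNA carried Cy3 on both of the 2 arrays, with no dye swap. Neither the number of animals behind an array nor their exact age is stated in the labels.

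The comparison asks which RNAs of the gland differ with the loss of Gata3. Each value is a log ratio of the channels as deposited, read as log2 from the range of the values. The numerator is unknown. If it was Cy5, a positive ratio means that het glands held more of the RNA, and if it was Cy3, that null glands did. Gata3 itself, on 1 feature, stood at 1.60 on the first array and 0.21 on the other, and did not pass the test over genes (limma adjusted p = 0.156). Whether that probe lies in the deleted part is not known, so it does not settle the sign. The spread across features was wider on array 1 (SD 0.67) than on array 2 (SD 0.44).

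A cell enters the cycle when cyclin D with Cdk4 or Cdk6, and then cyclin E with Cdk2, phosphorylate the retinoblastoma protein and release E2F factors, which switch on genes of DNA replication. Later, B-Myb and FoxM1 with their partner proteins switch on the genes of mitosis, so that the genes of a phase tend to be transcribed together in dividing tissue. In the adult gland epithelial, stromal and immune cells can all divide, and epithelial division varies with the estrous cycle and pregnancy.

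Across the set the genes did not share a direction. On both arrays 13 of the 42 genes had a positive ratio and 18 a negative one, and 11 had opposite signs. Among all genes 33.7% were positive on both arrays, 34.1% negative on both and 32.1% of opposite signs. The median over the set was -0.02 on array 1 and -0.10 on array 2, against 0.01 and -0.01 over all genes.

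**Figure D1:**
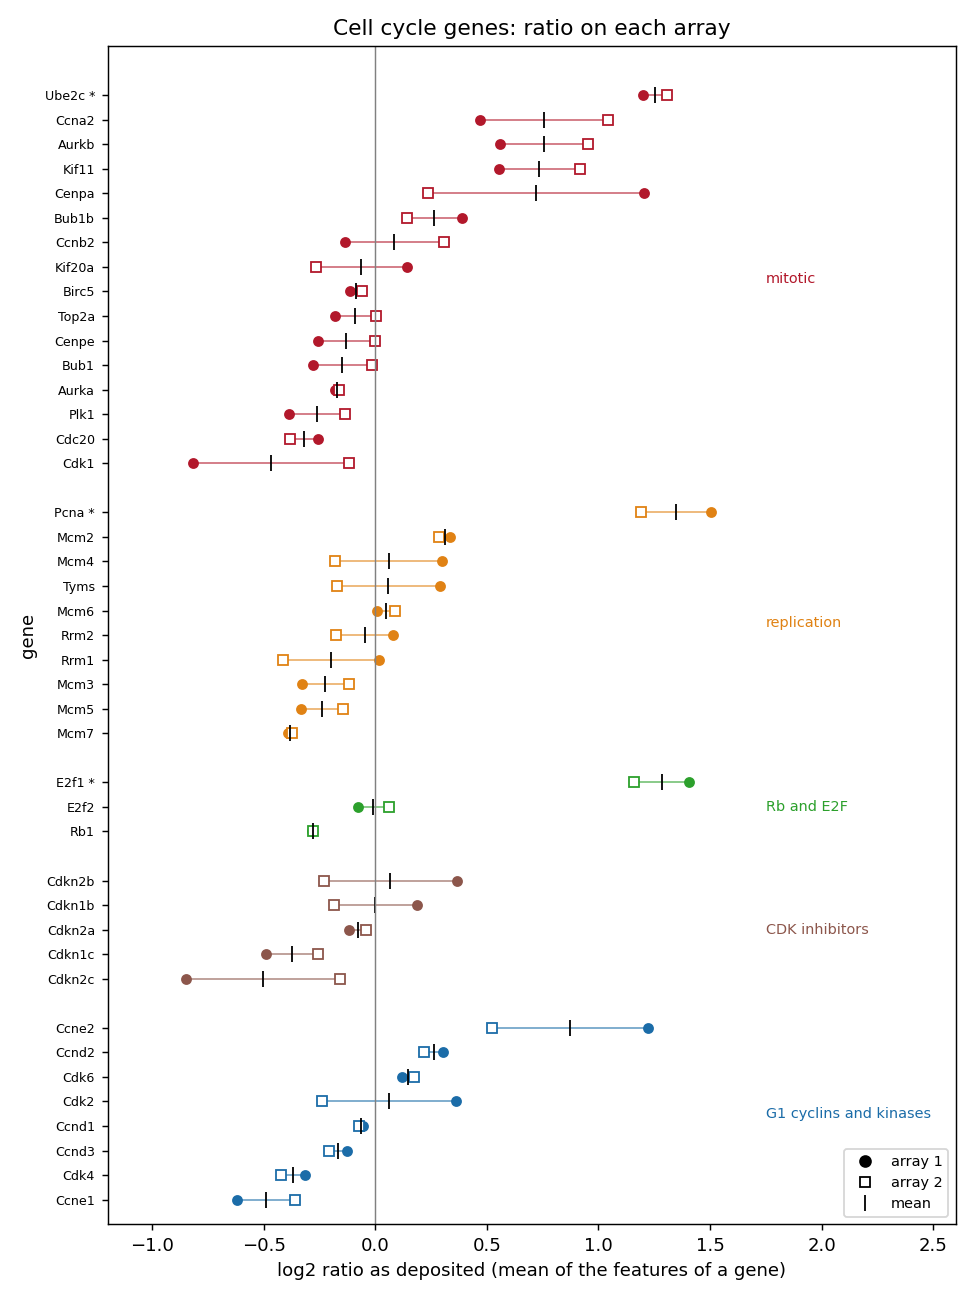
Log2 ratio as deposited (x axis) of each measured cell cycle gene (rows, grouped by role) on array 1 (filled circles) and array 2 (open squares), with the mean of the arrays as a black tick. An asterisk marks E2f1, Pcna and Ube2c, which passed the gene-level test; most other genes lie within 0.5 of 0, on either side.

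The gene-level test asked, with limma, whether the mean ratio differed from 0, with p-values adjusted over all 15056 genes and a threshold of 0.05. E2f1, Pcna and Ube2c passed, all with positive ratios, and 0 cell cycle genes passed with a negative ratio. Of all genes 8.26% passed, 7.28% with a positive and 0.983% with a negative ratio, so 3 of 42 is near the background and is no result about the set. Without adjustment, 8 positive genes and 1 negative gene had a p under 0.05, where 17.1% of all genes were positive and 6.67% negative at that level. The same genes, E2f1, Pcna and Ube2c, were those at least 2-fold from 0 with a positive sign on both arrays, as were 2.0% of all genes. None was that far from 0 with a negative sign, as were 0.146% of all genes.

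Pcna encodes the sliding clamp that holds DNA polymerases on the template. Array 1 gave 1.50 and array 2 gave 1.19, which are 2.84-fold and 2.28-fold. Averaged, this was 1.35 ± 0.22 (SD, n = 2), with a 95% interval from 0.91 to 1.79 (limma adjusted p = 0.0336). The arrays lay on the same side and close together.

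E2f1 encodes the activating E2F factor that drives entry into S phase. Ratios of 1.41 and 1.16, or 2.65-fold and 2.23-fold, averaged 1.28 ± 0.17 (SD, n = 2; limma adjusted p = 0.0336). Ube2c encodes the ubiquitin-conjugating enzyme that works with the anaphase-promoting complex to destroy mitotic cyclins. It stood at 1.20 and 1.30, on average 1.25 ± 0.07 (SD, n = 2; limma adjusted p = 0.0336). Each of these 3 genes was above percentile 94 of all genes on array 1 and above percentile 99 on array 2.

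These calls carry limits. With 2 arrays the smallest p of an exact permutation of signs is 0.5, so the limma test leans on the spread shared across genes, and its p-values cover only how far these arrays differ, which may be a technical spread. Adjusted over the 38976 features in place of genes, all 3 fell just outside the threshold (limma adjusted p = 0.0512 each). With both arrays in the same dye orientation, a dye bias of a probe and a genotype difference cannot be told apart. In whole-gland RNA, fewer cells of a type and less RNA per cell cannot be told apart either.

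**Figure D2:**
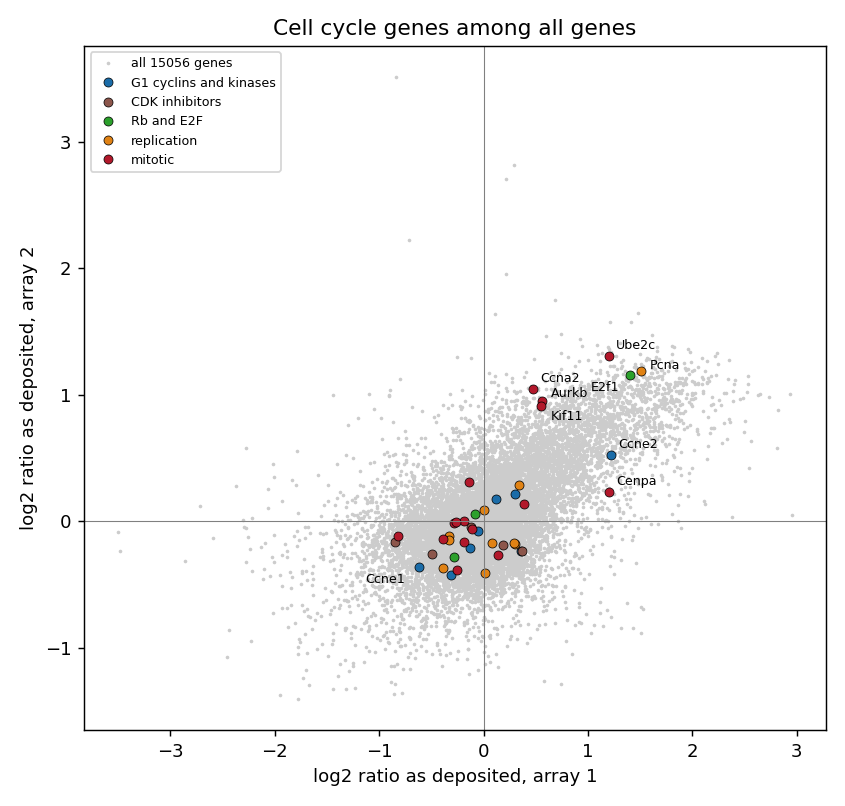
Log2 ratio as deposited on array 1 (x axis) against array 2 (y axis) for all 15056 genes (grey) and the 42 measured cell cycle genes (coloured by role). Genes with an unadjusted limma p under 0.05 are named; E2f1, Pcna and Ube2c lie together at the upper right, and Ccne1 is the only named gene below 0 on both arrays.

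The stretches before the starts of E2f1, Pcna and Ube2c are shown because E2F and mitotic promoters are defined by short words in this window. They hold 250 bases upstream of the RefSeq start in GRCm38.p6, written 5′ to 3′ along the gene's strand, with CCAAT boxes and CHR words on either strand in capitals. None of the windows holds an E2F word of those searched.
E2f1, chr2:154569427-154569676, minus strand: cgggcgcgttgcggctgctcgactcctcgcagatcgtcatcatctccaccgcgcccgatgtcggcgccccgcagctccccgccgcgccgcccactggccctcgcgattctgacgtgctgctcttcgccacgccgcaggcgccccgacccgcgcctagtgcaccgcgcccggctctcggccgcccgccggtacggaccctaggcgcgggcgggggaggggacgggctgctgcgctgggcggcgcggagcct
Pcna, chr2:132253181-132253430, minus strand: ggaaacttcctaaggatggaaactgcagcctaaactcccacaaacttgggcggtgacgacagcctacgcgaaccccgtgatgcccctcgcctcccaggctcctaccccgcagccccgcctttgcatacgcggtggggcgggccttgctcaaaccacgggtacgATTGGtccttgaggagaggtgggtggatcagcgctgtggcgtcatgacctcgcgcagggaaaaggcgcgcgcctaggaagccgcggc
Ube2c, chr2:164769679-164769928, plus strand: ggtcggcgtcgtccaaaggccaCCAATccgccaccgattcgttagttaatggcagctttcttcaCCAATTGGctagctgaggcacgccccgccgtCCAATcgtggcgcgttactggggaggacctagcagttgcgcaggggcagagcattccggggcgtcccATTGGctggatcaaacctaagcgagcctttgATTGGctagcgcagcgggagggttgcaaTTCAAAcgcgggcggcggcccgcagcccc
The Ube2c window holds 6 CCAAT boxes, some of them read on the other strand as ATTGG, and 1 CHR word beginning 29 bases before the start. The Pcna window holds 1 CCAAT box, and the E2f1 window 0 of either kind. No match says only that these letters are absent from this window. The E2f1 stretch appears to include protein-coding sequence of E2f1, so the start used may lie inside the gene. Any E2f1 promoter further upstream was not searched, and the missing words say nothing about it.

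The roles differed in the words their promoter windows hold. The E2F words searched were TTCCCGC and TTCGCGC, with the variants TTGCCGC and then TTGGCGC. The CHR words, elements of mitotic promoters, were TTTGAA or the similar TTTAAA, and the box bound by NF-Y was CCAAT. The words of GATA factors were AGATAA and its variant AGATAG, besides TGATAA and its variant TGATAG. Each was searched on both strands. The RefSeq table gave 42 windows for 36 of the 45 listed genes. E2F words were in 6 of 10 windows of replication genes, or 60.0%, against 7.89% of all 32851 windows. These 10 windows are of 9 genes, as Mcm7 has a second window, also with an E2F word. By gene, 5 held an E2F word and 4 did not. CHR words were in 11 of 15 windows of mitotic genes, or 73.3%, against 25.2% of all windows. CCAAT was in 14 of 15 mitotic and 9 of 10 replication windows, against 33.8% of all. GATA words were in 3 of the 42 windows, or 7.14%, against 26.5% of all windows. Base composition was not matched in these shares, and a word in a window is a description, not a binding site.

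Genes that share these words did not share a sign. Of the 9 measured mitotic genes with a CHR word, 3 were positive on both arrays, 4 negative on both and 2 of opposite signs, with means from -0.47 for Cdk1 to 1.25 for Ube2c. Of the 5 measured replication genes with an E2F word, 1 was positive and 2 were negative on both arrays, with means from -0.38 to 0.05.

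**Figure D3:**
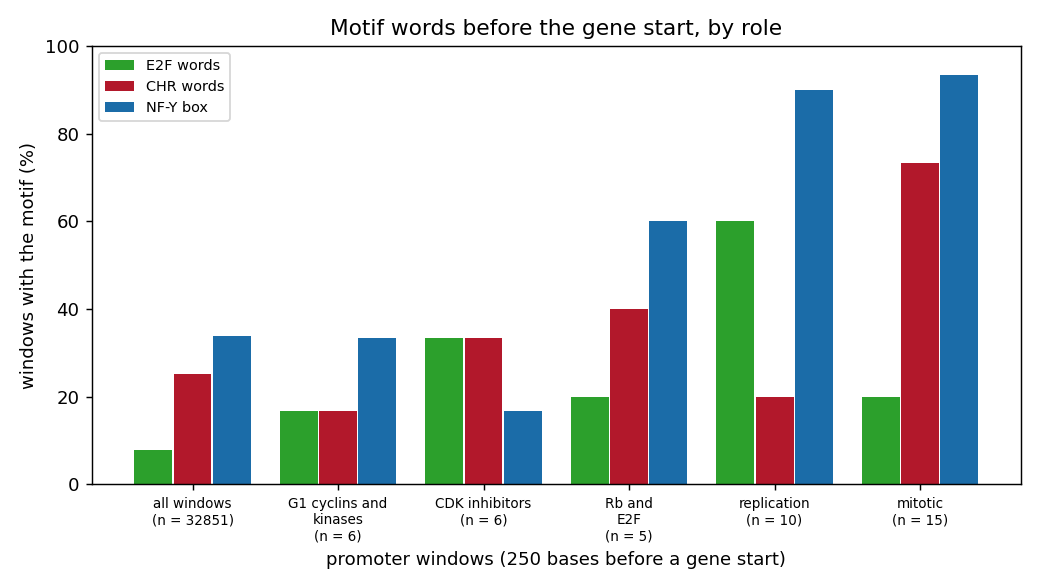
Percentage of promoter windows (y axis; 250 bases before a gene start) that hold at least 1 E2F word, CHR word or NF-Y box, for all windows and for each role (x axis, with the number of windows). CHR words stand out in mitotic windows at 73.3% and E2F words in replication windows at 60.0%.

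Among the G1 cyclins and their kinases 3 of 8 genes were positive and 4 negative on both arrays, and none passed. The D-type cyclins, which link growth signals to the cycle, lay near 0. Ccnd1, the cyclin D of mammary growth, had ratios of -0.05 and -0.07. Ccnd2 stood at 0.30 and 0.22, and Ccnd3 at -0.13 and -0.21. Their kinase partners differed in sign: Cdk4 had -0.32 and -0.42, and Cdk6 0.12 and 0.17. The 95% interval of the mean (limma) ran from -0.48 to 0.35 for Ccnd1 and from -0.79 to 0.05 for Cdk4, and both intervals include 0.

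The E-type cyclins, which activate Cdk2 at the entry to S phase, lay on opposite sides of 0. Ccne2 had ratios of 1.22 and 0.52 (limma adjusted p = 0.0656), and Ccne1 had -0.62 and -0.36 (limma adjusted p = 0.165). Ccne1 was the negative gene with an unadjusted p under 0.05. Neither passed, and the difference between them was not tested. Cdk2 itself had opposite signs, 0.36 on array 1 and -0.24 on array 2.

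Of the 5 inhibitors of cyclin-dependent kinases, 0 were positive on both arrays, 3 were negative on both and none passed. Cdkn2c encodes p18INK4c, an inhibitor of Cdk4 and Cdk6, and was the lowest of the whole set on average, at -0.50 ± 0.49 (SD, n = 2; limma adjusted p = 0.230). That mean came mostly from array 1, with -0.85 there and -0.16 on array 2. Cdkn1c, the gene of p57KIP2, had -0.49 and -0.26. Cdkn2a, which encodes p16INK4a and the p53 activator ARF, lay near 0 at -0.12 and -0.04. The gene of p27KIP1, Cdkn1b, had 0.19 and -0.19, and Cdkn2b, the gene of p15INK4b, 0.37 and -0.23, so both changed sign between arrays.

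In the Rb and E2F group E2f1 was the only gene of 3 measured to pass. Rb1, the gene of the retinoblastoma protein that restrains E2F factors, had ratios of -0.28 and -0.28 (limma adjusted p = 0.396). E2f2, another activating E2F, had -0.08 and 0.06.

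The medians of the replication genes were 0.05 and -0.16, with 3 of 10 positive, 3 negative and 4 of opposite signs. Pcna passed and the other 9 did not. The Mcm2 to Mcm7 genes encode the subunits of the helicase that unwinds DNA at the fork. Mcm2 had 0.34 and 0.29, the highest of them by mean. Mcm7 had -0.39 and -0.37, the lowest (limma adjusted p = 0.249). Mcm3 stood at -0.33 and -0.12, and Mcm5 at -0.33 and -0.14. Mcm6 stood at 0.01 and 0.09, and Mcm4 changed sign, from 0.30 to -0.18. The subunits of this complex therefore lay on both sides of 0, with none past the test.

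The genes of deoxynucleotide synthesis also changed sign between arrays. Rrm1 and Rrm2 encode the large and the small subunit of ribonucleotide reductase. They had 0.02 and -0.41 (Rrm1) and 0.08 and -0.17 (Rrm2). Tyms, which encodes thymidylate synthase, had 0.29 and -0.17.

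Mitotic genes lay on both sides of 0. Of 16 measured, 6 were positive on both arrays, 7 negative on both and 3 of opposite signs. Their medians were -0.13 on array 1 and 0.00 on array 2. Next to Ube2c came Ccna2, the gene of cyclin A2 of S and G2 phase, at 0.47 and 1.04 (limma adjusted p = 0.0797). Aurkb, the kinase of the chromosomal passenger complex, had 0.56 and 0.95 (limma adjusted p = 0.0630). Kif11, the kinesin that pushes spindle poles apart, had 0.55 and 0.92 (limma adjusted p = 0.0660). These 3 genes were higher on array 2 than on array 1, although array 1 had the wider spread, and none passed. Cenpa, the histone variant that marks centromeres, had 1.20 and 0.23 (limma adjusted p = 0.155), so its mean rested on array 1.

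Other mitotic genes lay below 0. Cdk1, the kinase that drives entry into mitosis, had -0.82 and -0.12 (limma adjusted p = 0.270). Cdc20, an activator of the anaphase-promoting complex that Ube2c serves, had -0.26 and -0.38. Plk1, a kinase of spindle assembly, had -0.39 and -0.14, and Aurka, a centrosome kinase, -0.18 and -0.16. Birc5, the survivin of the passenger complex, had -0.11 and -0.06 (limma adjusted p = 0.826). By their means, Cdc20 and Birc5 thus lay on the other side of 0 from their partners Ube2c and Aurkb. On single arrays the features of Cdc20 and of Birc5 differed in sign, and no difference between partners was tested.

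The remaining mitotic genes were close to 0 on at least 1 array. Bub1b, a kinase-related protein of the spindle checkpoint, had 0.39 and 0.14, while its relative Bub1 had -0.28 and -0.02. Ccnb2, the gene of cyclin B2, had -0.14 and 0.31, and Kif20a, a kinesin of cytokinesis, 0.14 and -0.27. Top2a, the topoisomerase that untangles chromosomes, had -0.18 and 0.00. Cenpe, a kinetochore kinesin, had -0.26 and -0.00.

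Genes measured by several features showed how far a value depends on the probe. The features of a gene may be copies of a probe or different probes, which the labels do not say. Over the 21 genes with 2 or more features, the range between the features' means had a median of 0.58, against 0.46 over all 5138 such genes. These pooled values are not matched for the number of features. With 2 features the medians were 0.55 for the 10 cell cycle genes and 0.37 for all genes. With 3 features they were 0.58 for 9 cell cycle genes and 0.62 for all, and with 4 features 1.07 for 2 and 0.77 for all. In 10 of the 21 genes the features lay on both sides of 0, as in 55.1% of all such genes. By 2, 3 and 4 features this was 3 of 10, 5 of 9 and 2 of 2, against 47.9%, 67.9% and 79.5% of all genes.

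Ccne2 had the widest range, 1.57, at percentile 97.6 of all genes with 2 features. Its first feature gave -0.04 and 0.21, and the other gave 2.48 and 0.83. The positive mean of Ccne2 thus came from 1 feature. In Tyms 1 feature gave 1.85 on array 1 and 0.35 on array 2, and the other 3 features had means of -0.38, -0.40 and -0.09. Cenpe had features with means of -0.41, -0.56 and 0.59, and Mcm6 features at 0.54, 0.05 and -0.45.

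Among the low genes the features also differed in size, but those of Ccne1, Cdkn2c, Cdk1, Mcm7, Cdk4 and Cdc20 all had means below 0. Ccne1 had features with means of -0.10 and -0.88. Cdkn2c had -0.29 and -0.72, and Cdk1 -0.18 and -0.75, with the lower feature of each far from 0 on array 1 alone, at -1.34 and -1.49. Cdk4 had features with means of -0.28, -0.21 and -0.62, and Cdc20 of -0.02, -0.60 and -0.33. In Mcm7 1 feature gave -0.75 and -0.70 on the arrays and the other -0.04 and -0.05. Averaged over the arrays, the features of Ccnd3 and Birc5 lay closest together, within 0.06 and 0.10 of each other. On single arrays they were further apart, by 0.50 and 0.41 for Ccnd3 and by 0.32 and 0.41 for Birc5.

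**Figure D4:**
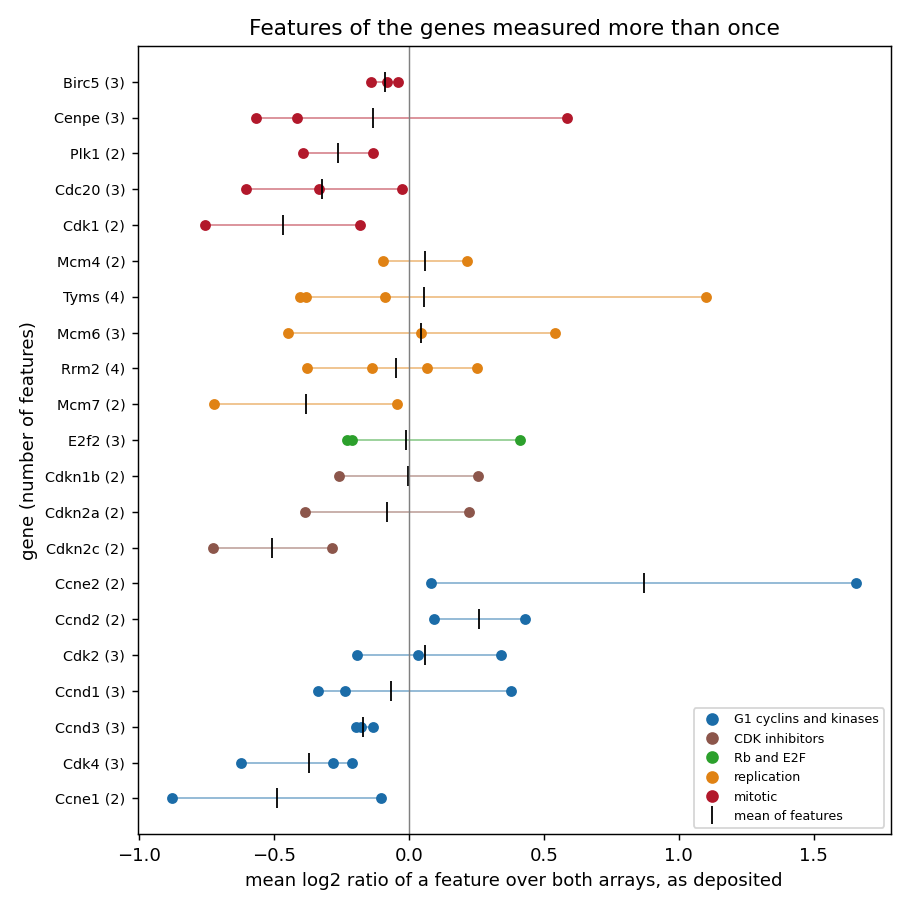
Mean log2 ratio over both arrays of each feature (points, x axis) of the 21 cell cycle genes with 2 or more features (rows, with the number of features), and the mean of a gene's features (black tick). Single features of Ccne2 (1.66) and Tyms (1.10) lie far from the others of the same gene.

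E2f1, Pcna and Ube2c each had 1 feature, so no second probe was measured for them. Among all genes with 1 feature 11.4% passed the gene-level test, against 2.24% of genes with 2 or more. Of the 21 cell cycle genes with 1 feature 3 passed, and of the 21 with more features 0 passed (limma; at an unadjusted p under 0.05 there were 2). The mitotic genes split along this line: of 11 with 1 feature 6 were positive and 2 negative on both arrays, while all 5 with more features (Birc5, Cdc20, Cdk1, Cenpe and Plk1) were negative on both. The other mitotic genes described below were not split in this way: of 25 with 1 feature 12 were positive and 6 negative on both arrays, and of 17 with more features 8 were positive and 6 negative. Of all 5138 genes with more features 1731 were positive and 1893 negative on both. The part of the number of features in these values was not tested.

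Other genes of the cycle, 96 measured of 105 listed, had 9 positive and 1 negative past the test, or 10.4% in all against 8.26% of all genes. In the G1 and Rb pathway 1 of 16 passed, E2f5, a repressive E2F, at 1.55 and 0.84 (limma adjusted p = 0.0348). Cks1b, a small subunit of cyclin-dependent kinases, had 0.68 and 0.72, Rbl1, the gene of p107, 0.64 and 0.39, and Tfdp1, the DNA-binding partner of E2F, 0.26 and 0.17. E2f4 had -1.05 and -0.14, Rbl2, the gene of p130, -0.92 and -0.27, and Skp2, which targets p27KIP1 for destruction, -0.39 and -0.26. These 6 did not pass.

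Of 38 other replication genes 2 passed. Pole2, a subunit of DNA polymerase epsilon, had 1.70 and 0.78 (limma adjusted p = 0.0381), and Dut, which removes dUTP, had 1.21 and 0.63 (limma adjusted p = 0.0479). Positive genes that did not pass included Orc1 of the origin recognition complex at 1.71 and 0.35, the clamp loader subunit Rfc1 at 0.61 and 0.72, and Rpa1, which coats single-stranded DNA, at 0.51 and 0.41. Negative ones were Orc4 at -0.38 and -0.76, the chromatin assembly factor Chaf1b at -0.30 and -0.62, and the primase Prim1 at -0.62 and -0.11. Rfc1 loads the clamp that Pcna encodes, and the list's medians were 0.01 and -0.00.

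Of these 3 further lists, other mitotic genes had the largest share past the test, 7 of 42 or 16.7%, with 6 positive and 1 negative. Of all genes 8.26% passed. With 1 feature 20.0% of the 25 listed genes passed, against 11.4% of all such genes, and with more features 11.8% of 17 against 2.24%. The lists were chosen with earlier results of these data known, so this order of lists is a description only. Spc25, a subunit of the Ndc80 kinetochore complex, had 1.52 and 1.02 (limma adjusted p = 0.0336). Kif23, a kinesin of the central spindle, had 1.48 and 1.03 (limma adjusted p = 0.0336). Ect2, the exchange factor that starts the cleavage furrow, had 1.47 and 0.70 (limma adjusted p = 0.0416). Cks2 stood at 1.16 and 0.75, Nek2, a centrosome kinase, at 0.83 and 0.90, and Pttg1, the gene of securin, at 0.85 and 0.85. Cks2 and Nek2 have 2 features each, and the other 5 that passed have 1.

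Kif2c, a microtubule-depolymerising kinesin of the centromere, was the negative gene past the test, at -1.12 and -0.79 (limma adjusted p = 0.0366). Not past it were Ccnb3 at 1.81 and 0.06, Wee1, which inhibits Cdk1, at 1.03 and 0.55, and Foxm1, the mitotic transcription factor, at 1.08 and 0.43. Nor were Cdca8 of the passenger complex (-0.72 and -0.16), Prc1 of the central spindle (-0.59 and -0.28) and Pkmyt1, another Cdk1 inhibitor (-0.61 and -0.24). In this list 20 genes were positive and 12 negative on both arrays, and its medians were 0.10 and 0.14. The share of 7 in 42 was not tested against other genes.

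**Figure D5:**
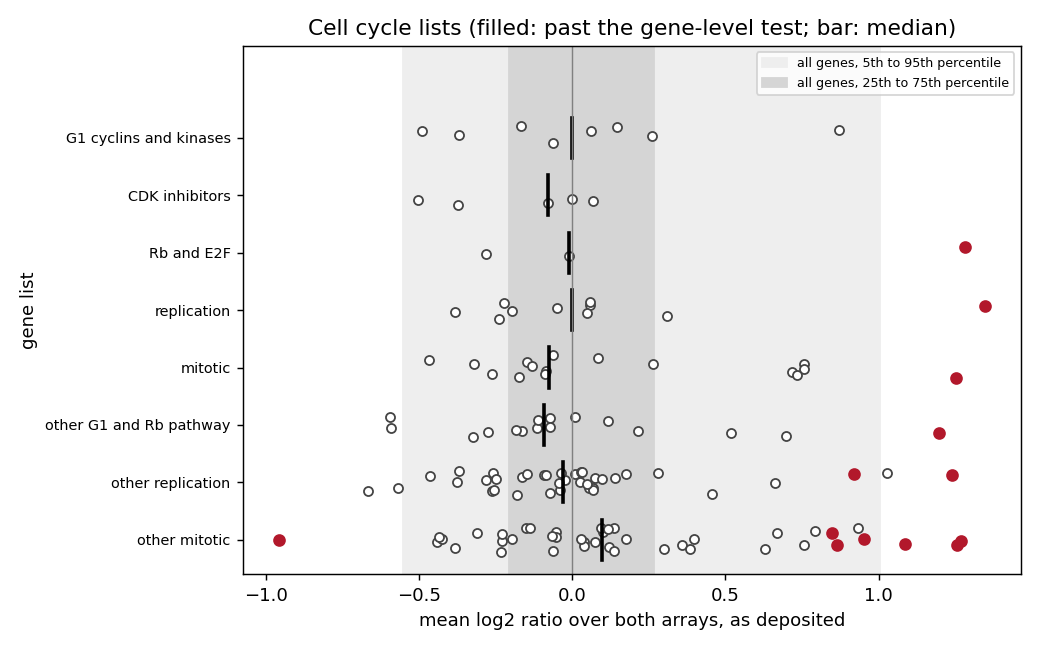
Mean log2 ratio over both arrays (x axis) of every measured gene in the 5 roles and in the 3 lists of other cell cycle genes (rows). Filled points passed the gene-level test, black bars are list medians, and the shaded bands span the 25th to 75th and the 5th to 95th percentile of all genes; the medians lie inside the inner band and the genes that passed lie outside the outer band or near its edges.

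Markers of the cell types that could divide or dilute these RNAs moved in both directions. Only ratios were available, so the presence of each cell type could not be checked by level. Lymphocyte and lymph node markers, 9 measured of 12, had medians of -0.23 and -0.17, with 1 past the test, Cd3g at 1.11 and 0.68. Among them 2 were positive and 4 negative on both arrays. Luminal markers, 8 of 8, had medians of -0.02 and 0.04, and Cd24a passed at 1.22 and 0.91. Here 3 were positive and 3 negative on both arrays. At an unadjusted limma p under 0.05 there were 1 positive and 2 negative luminal markers. Basal markers, 6 of 7, had -0.11 and -0.20, with Krt5 past the test at -1.31 and -0.62. Of the basal markers 1 was positive and 4 negative on both arrays, and the highest mean was 0.805.

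White adipocyte markers (7 of 8) had medians of -0.81 and -0.02, and fibroblast markers (5 of 6) -1.77 and -0.07, with 0 genes of either list past the limma test (at an unadjusted p under 0.05 there were 3 and 1). Endothelial markers (5 of 6) had medians of 0.26 and 0.16, and macrophage markers (4 of 6) 0.54 and 0.46, with Ctss past the test at 1.64 and 1.26. The fat and fibroblast medians were thus low on array 1 and near 0 on array 2, and the macrophage and endothelial medians were positive on both. Within lists the signs were mixed. On both arrays 2 macrophage markers were positive and 1 negative, with a lowest mean of -0.65. For endothelial markers this was 3 and 2, with a lowest mean of -0.555. In both lists 1 negative marker had an unadjusted limma p under 0.05. Fat markers had 2 positive and 4 negative, and fibroblast markers 0 and 3. The part of cell type makeup in the cell cycle values was not tested.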

How the data were processed

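Total RNA of het and null mammary glands was compared on 2 spotted oligonucleotide arrays. Per the series' design text, print-tip lowess in Acuity 4.0 was the authors' normalization. The deposited values are log ratios, read here as log2. No source used here gives their base, numerator or centring, nor the background correction or spot filters. Spot intensities were not used here, and having 2 arrays limits the precision. Of 38976 features, none lacking a value, 22973 had 1 gene symbol, 0 several and 16003 none. Entrez IDs matched all 22973 to RefSeq symbols (GRCm38.p6) of 15056 genes.

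Features of a gene were averaged per array, and the means were set against 0 by limma 3.58.1 under R 4.3.3 (intercept, empirical Bayes, two-sided, Benjamini-Hochberg over all genes). This leaves 1 residual degree of freedom; the prior added 5.41. The fit was tested on simulated ratios drawn from its own model without a dye bias, which checks only that the code works as meant. All measured members are named. Of other cell cycle lists, the genes past the test and up to 3 more per direction with 1 sign on both arrays are named. Sequences are from RefSeq tables; motif shares have no test. Alternatives were 3 array scalings, other treatments of features, a robust prior, another threshold, the turned sign and each array alone. The members and lists were chosen with earlier results of these data known. Figures were drawn with matplotlib 3.10.9.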

Additional observations from a re-analysis of the deposited data

How the results depend on the processing

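Het and null RNA shared each array, so the test of the log ratios against 0 was already paired within arrays. The replicate numbers only name the arrays, and no further pairing was used. E2f1, Pcna and Ube2c passed in the limma gene-level fit and in all 6 other gene-level fits, but not at the feature level, where 0 members and 0 of all features passed (limma; unadjusted p under 0.05 for 15 features of members and 8559 of all, lowest adjusted p 0.0512). With each array's median subtracted, with the median absolute deviations made equal, by quantiles and at an adjusted p of 0.1, 7 members passed, all positive; in the 3 scalings the added genes were Ccne2, Ccna2, Aurkb and Kif11. Dropping features whose arrays differ by more than 1 also gave 7, with Cenpa in place of Ccne2, a filter that by construction lowers the spread. In each setting the count over all genes moved too. The share of all genes past the test was 8.26% in the main fit and 11.9% (1793 genes) after median subtraction. It was 13.6% with equal deviations, 15.9% by quantiles and 19.5% with features dropped. The rise to 7 of 42 members is therefore no result about the set. Of all genes 1244 passed (1096 positive, 148 negative). The count was 2052 (1726 and 326) once the median absolute deviations were equal, 2391 (1877 and 514) by quantiles, 2815 (2105 and 710) with features dropped, and 2113 (1729 and 384) at an adjusted p of 0.1. The negative count was 245 after median subtraction and 95 with the median of features. Under the turned sign the 3 members are negative and 0 positive, the counts of all genes are 148 positive and 1096 negative, and the medians of the inhibitors and mitotic genes are 0.080 and 0.074. The medians of roles lay near 0. Taken over features, they were -0.13 for G1 cyclins and kinases, -0.27 for inhibitors and -0.21 for Rb and E2F. With each array left out in turn they ran from -0.14 to 0.032 for G1 cyclins and kinases, from -0.19 to -0.12 for inhibitors and from -0.16 to 0.047 for replication genes; single arrays give no test. Members near 0 changed sign: Ccnd1 to 0.046 and Tyms to -0.22 with the median of features, Cdk2 to -0.078 and Tyms to -0.29 with features dropped, Cdkn1b to 0.017 and E2f2 to 0.0077 after median subtraction, E2f2 to 0.022 with equal deviations, and Tyms to -0.0063 by quantiles. In all 5 of these genes the features lie on both sides of 0, and subtracting the medians moves each mean up by the same small amount. The cause of these changes was not tested further.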

Other observations

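The share of genes past the limma test fell with the number of features behind a gene. The SD of the gene means was 0.51 over the 9918 genes with 1 feature and 0.33 over the 5138 genes with 2 or more. Over the cell cycle genes the same SD was 0.56 for the 21 with 1 feature and 0.31 for the 21 with more. Of the 8 positive cell cycle genes with an unadjusted limma p under 0.05, 7 have 1 feature, and Ccne2 has 2. Of all 2580 positive genes at that level 1996 have 1 feature. Among genes with 1 feature these are 7 of 21 cell cycle genes against 1996 of all 9918. Among genes with more features they are 1 of 21 against 584 of all 5138. These shares were not tested against each other. The pattern with the number of features was noticed after the values were seen, and its cause was not tested.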
